A study of Mus musculus with 6 samples.

Results

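The 8 genes described here carry vitamin A and its plant precursors from the gut lumen into the enterocyte, store it, turn it into retinoic acid and break that down: Rbp2, Bco1, Isx, Lrat, Rdh7, Dhrs3, Aldh1a1 and Cyp26b1. They were taken by name from the 55267 genes of the deposited transcript table, and the transcripts of each gene were summed. Their levels were read in intestine of mice given cold water and of control mice, 3 libraries from each group. None of the 6 genes abundant enough to test passed edgeR's test after adjustment across all genes, so none was called different between the groups. The levels of the 8 genes, in contrast, ran over 4 orders of size, from Rbp2, the 13th most abundant gene of the table, to Bco1, which was close to the limit of detection.

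Dietary carotenoids are cleaved in the enterocyte to retinal, which is reduced to retinol. Retinol is held by an abundant binding protein, esterified and sent out in chylomicrons, and a smaller part is oxidised through retinal to retinoic acid, the ligand of nuclear receptors. Retinoic acid restrains its own supply in the intestine, since it induces the homeobox repressor ISX, which lowers carotenoid uptake and cleavage, and induces enzymes that reduce retinal or hydroxylate retinoic acid.

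Mice of the cold water group received 1 ml of water at 0 to 4 °C by gavage at 8 am each day for 14 days, per the labels. Control mice received 1 ml at 20 to 25 °C at 9 am over the same 14 days, and all were housed at 22 °C. The water's temperature and the clock hour therefore differed together between the groups and cannot be told apart. The labels give no strain, sex or age and do not state whether the libraries are of different animals, so p-values measure the spread between these samples, which may be technical.

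Each library held 72690433 to 78668871 estimated counts, equal to about 19306888 to 20894786 fragments. The sample labels name proximal jejunum and the design text names colon. All 20 villus enterocyte markers had a mean of at least 1 FPKM (fragments scaled to transcript length and library total), against 3 of 9 colon markers and 2 of 5 markers of the far ileum. Of 8 proximal small intestine markers 6 reached it, with Fabp1 and Lct also in the enterocyte list. Their median was 2.53 to 3.27 FPKM over the libraries. The colon markers had a median of 0.170 to 0.796 FPKM and summed to 69.5 to 93.3 FPKM. The colon sodium channel subunit Scnn1g and the ileal hormone gene Fgf15 were at 0 in all 6 libraries. The summed level of the enterocyte markers was 35970 to 57000 FPKM in cold water and 32910 to 46140 FPKM in control. The summed smooth muscle markers (8 of 8 detected at this level) lay at 345 to 1385 and 172 to 1689 FPKM, with control 2 and cold water 2 highest. Plasma and B cell markers (8 of 8) summed to 4773 FPKM in cold water 1 and to 1232 to 1884 FPKM in the other 5 libraries. Paneth cell markers (8 of 8) summed to 5461 to 9735 FPKM in cold water and 4903 to 7240 FPKM in control. Exocrine pancreas markers (1 of 8) were the only list whose sums did not overlap. They summed to 13.83 to 16.08 FPKM in cold water and 18.29 to 21.35 FPKM in control. These are whole-tissue libraries, so fewer cells of a type and less RNA per cell cannot be told apart. The part that tissue makeup had in the values below was not tested. The scaling to enterocyte markers given with Rdh7 takes their summed counts as library size. Abundant markers such as Apoa4 weigh most in it, so it does not measure tissue makeup. Apoa4 stood at 8319, 12700 and 20600 FPKM in cold water 1, 2 and 3 and at 8174, 5747 and 10370 FPKM in control 1, 2 and 3.

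The stretches before the starts of Rbp2 and Bco1, the genes at the top and the bottom of the range, are shown because of the letters they share near the start. They are taken from the RefSeq promoter table (build GRCm38.p6, plus strand) and end at the base before the RefSeq start, chr9:98490287-98490536 for Rbp2 and chr8:117095615-117095864 for Bco1.
Rbp2: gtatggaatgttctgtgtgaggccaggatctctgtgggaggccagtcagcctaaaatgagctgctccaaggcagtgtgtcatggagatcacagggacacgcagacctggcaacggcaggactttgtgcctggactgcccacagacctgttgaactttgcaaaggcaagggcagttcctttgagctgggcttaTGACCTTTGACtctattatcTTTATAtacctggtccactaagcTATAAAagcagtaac
Bco1: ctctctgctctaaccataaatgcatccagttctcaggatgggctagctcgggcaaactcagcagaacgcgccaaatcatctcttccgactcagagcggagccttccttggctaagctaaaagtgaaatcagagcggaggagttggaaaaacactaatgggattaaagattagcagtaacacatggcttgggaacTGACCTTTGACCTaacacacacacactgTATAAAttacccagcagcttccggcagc
Capitals mark the searched motifs. The longest run of letters present in both is TGACCTTTGAC, 58 to 48 bases before the start in Rbp2 and 56 to 46 bases before it in Bco1. Read on the other strand they hold the half-site AGGTCA that nuclear receptors of the retinoid family bind, and in Bco1 they lie in a direct repeat of it with 1 base between, AGGTCANAGGTCA, 56 to 44 bases before the start. The other capitals are the TATA box letters TATAAA on either strand, once in Bco1 (28 to 23 bases before the start) and at both strands in Rbp2 (38 to 33 and 15 to 10 bases before it).

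Windows were found for 8 of 8 genes, 12 windows in all, each reaching from 250 bases before a start to 50 after it, and both strands were searched. TGACCTTTGAC, which was chosen after these sequences were seen, stood in 12 of all 32851 windows (0.0365%), and AGGTCANAGGTCA in 13 of them (0.0396%). AGGTCA alone stood in 16.3% of all windows and in 3 of the 12, those of Rbp2, Bco1 and Rdh7. TATAAA stood in 13.6% of all windows and in 3 of the 12. The wider repeat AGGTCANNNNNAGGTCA (0.00913% of all windows) and TAATTA, a core of homeodomain sites (5.29%), stood in none of the 12. These motifs overlap one another, and a match describes letters and not binding.

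Rbp2 encodes cellular retinol-binding protein II, which holds retinol and retinal inside the enterocyte. It lies on chr9:98486115-98509781, plus strand, and the deposited coordinates of the 30 transcripts of the 8 genes are those of GENCODE M21 on GRCm38. Rbp2 stood at 5762, 7154 and 6937 FPKM in cold water 1, 2 and 3 and at 6260, 6065 and 8194 FPKM in control 1, 2 and 3. The groups overlapped, with the highest and the second lowest values both in control libraries. The mean was 6618 ± 749 FPKM in cold water and 6840 ± 1177 FPKM in control (SD, n = 3), and the gene alone held 0.938 to 1.298% of the summed FPKM of a library. The log2 difference was -0.04 (standard error 0.29, 95% interval -0.72 to 0.64; adjusted p = 0.994 by edgeR's quasi-likelihood test, adjusted after Benjamini-Hochberg). On the linear scale this interval runs from 0.608 to 1.55 times the control level.

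One transcript, ENSMUST00000035029, held 95.9 to 99.8% of the Rbp2 counts, and it begins at the start used for the promoter shown above. Cold water 2 was the exception among the libraries, since ENSMUST00000187905, which starts further upstream, was listed there at 279 FPKM and at 0 FPKM in the other 5. The predicted gene Gm37113 lies within Rbp2 on the same strand and stood at 2.66 to 5.90 FPKM, so a small number of reads could belong to either.

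Bco1 encodes beta-carotene oxygenase 1, the enzyme that splits beta-carotene into retinal. Its level at chr8:117095854-117133720, plus strand, was 0.461, 0.400 and 0.481 FPKM in cold water 1, 2 and 3 and 0.118, 0.429 and 0.439 FPKM in control 1, 2 and 3. Control 1 was low and the other 5 libraries lay close together, so the groups overlapped. Behind these values stood about 24.7, 20.2 and 23.9 fragments in cold water and 6.1, 21.5 and 23.4 fragments in control. With a mean of 0.388 FPKM over the 6 libraries Bco1 did not reach the 1 FPKM asked of a tested gene. The ratio of the group means was 1.36, cold water over control, and a two-sided exact permutation test gave p = 0.4, where 0.1 is the smallest that 3 against 3 libraries allow. This ratio, 0.44 on the log2 scale, was 0.04 without control 1 and 0.39 to 0.71 without any other 1 library. One transcript, ENSMUST00000034308, carried all of the counts, and its start at position 117095854 lies in the last bases of the stretch shown above.

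Isx encodes the intestine-specific homeobox protein that represses Bco1 and the carotenoid receptor gene Scarb1. At chr8:74873173-74893506, plus strand, it stood at 69.4, 68.9 and 76.2 FPKM in cold water 1, 2 and 3 and at 71.4, 79.2 and 85.8 FPKM in control 1, 2 and 3. The groups overlapped through cold water 3 and control 1, and the highest of the 6 values was only 1.24 times the lowest, the narrowest range of the 8 genes. The means were 71.5 ± 4.09 and 78.8 ± 7.20 FPKM (SD, n = 3), and the log2 difference was -0.12 (standard error 0.17, 95% interval -0.53 to 0.29; edgeR adjusted p = 0.953). The transcript ENSMUST00000034034 held 90.1 to 93.9% of the Isx counts.

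Isx was 150 to 196 times as abundant as Bco1 in 5 libraries and 603 times in control 1, the library with the fewest Bco1 fragments. Bco2, the mitochondrial enzyme that cleaves carotenoids off centre, was also far above Bco1. It stood at 54.6, 60.6 and 56.0 FPKM in the cold water libraries and at 97.5, 71.8 and 71.1 FPKM in control. Every cold water value lay below every control value, and the log2 difference of -0.47 did not pass (standard error 0.18, edgeR adjusted p = 0.878). The leading transcripts of Bco1 and Bco2 share 69.8% of the bases in the part that aligns, with no shared run longer than 14 bases.

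By mean level over the 6 libraries the order of the 8 genes was Rbp2, Aldh1a1, Rdh7, Isx, Dhrs3, Lrat, Cyp26b1 and Bco1. Neighbours in this order kept apart in their ranges except for 2 pairs. Rdh7 (75.5 to 141 FPKM) overlapped with Isx (68.9 to 85.8 FPKM), and Cyp26b1 (0.364 to 1.24 FPKM) with Bco1 (0.118 to 0.481 FPKM).

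**Figure D1:**
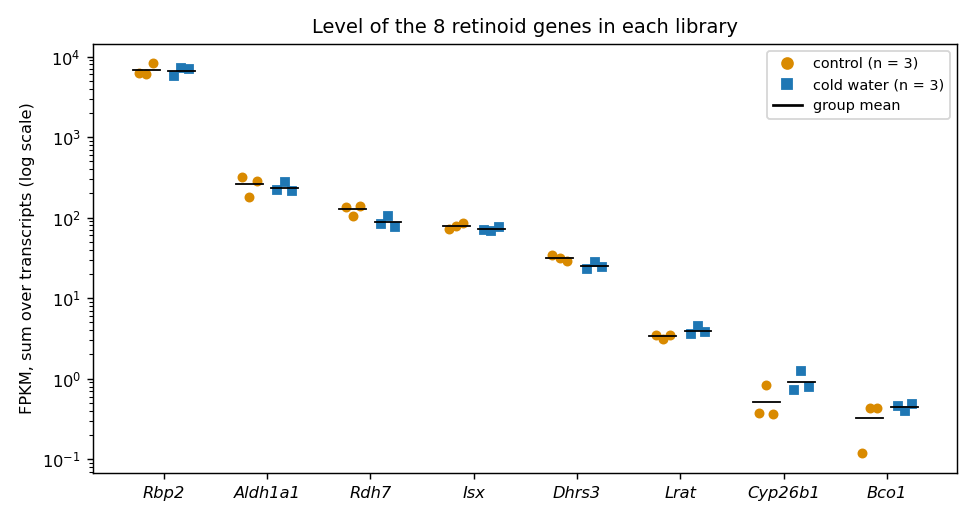
FPKM of the 8 retinoid genes on a log scale, 1 point per library (circles, control; squares, cold water; n = 3 each) with a line at the group mean. The genes span from Bco1, at 0.118 to 0.481 FPKM, to Rbp2, at 5762 to 8194 FPKM, while the groups of each gene lie side by side.

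Lrat encodes lecithin retinol acyltransferase, which esterifies retinol for storage and for chylomicrons. At chr3:82892579-82903973, minus strand, it stood at 3.58, 4.45 and 3.82 FPKM in cold water 1, 2 and 3 and at 3.44, 3.13 and 3.52 FPKM in control 1, 2 and 3. Every cold water value lay above every control value, by little. Among all genes tested, 9.44% had groups that did not overlap in FPKM. In counts scaled by library total and TMM factor (CPM) the Lrat groups overlapped, at 19.4 to 26.3 and 16.9 to 23.0. The log2 difference was 0.24 (standard error 0.19, 95% interval -0.21 to 0.70; edgeR adjusted p = 0.902). Scaled to the enterocyte markers it was -0.05, and 0.22 relative to the median of all genes. Dgat1, an acyltransferase of triglyceride synthesis that can also esterify retinol, was 100 to 178 times as abundant per length as Lrat. Its groups overlapped, with means of 526 ± 146 FPKM in cold water and 584 ± 54.3 FPKM in control (SD, n = 3), while the fit on counts gave a log2 difference of 0.07, so the sign depended on the scale. One transcript, ENSMUST00000029632, is listed for Lrat. The long noncoding gene Rbm46os covers it on the opposite strand and was at 0 in all 6 libraries.

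Rdh7 encodes a short-chain dehydrogenase of the endoplasmic reticulum that oxidises retinol to retinal and also acts on steroids. At chr10:127884028-127888817, minus strand, it stood at 83.0, 103.9 and 75.5 FPKM in cold water 1, 2 and 3 and at 137, 104.5 and 141 FPKM in control 1, 2 and 3. All cold water values lay below all control values, but cold water 2 and control 2 almost met, and in scaled CPM they crossed (192.8 in cold water 2 and 176.5 in control 2). The means were 87.5 ± 14.8 and 128 ± 20.1 FPKM (SD, n = 3). Rdh7 had the largest log2 difference of the 6 tested genes, -0.55 (standard error 0.22, 95% interval -1.07 to -0.02), which is a cold water level of 0.684 times control with an interval of 0.475 to 0.985. It did not pass (edgeR adjusted p = 0.878). It was the 1 gene of the 6 with an unadjusted p under 0.05, where 5.01% of all genes tested had one. With library sizes taken from the enterocyte markers in place of the totals, the difference was -0.79, and -0.52 relative to the median of all genes, which that scaling moved by -0.295.

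The leading transcripts of Rdh7 and of the neighbouring genes of its cluster on chromosome 10 are 83.7 to 86.9% identical, with identical runs of up to 133 bases, so reads of these genes could be split between them. Rdh7 held 64.1 to 78.0% of the summed FPKM of the cluster. Rdh9 stood at 19.7 to 32.1 FPKM (log2 difference -0.06), Rdh16f2 at 6.27 to 16.8 FPKM (-0.39) and Rdh16 at 1.14 to 2.40 FPKM (-0.48). Rdh1 and Rdh19 stayed at or below 0.412 FPKM and Rdh16f1 was at 0 in all 6 libraries. Summed over the cluster, the level was 111, 141 and 118 FPKM in the cold water libraries and 183, 134 and 188 FPKM in control, and these groups overlapped through cold water 2 and control 2 (exact permutation p = 0.2, two-sided).

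The 3 tested genes whose pattern over the 6 libraries was most like that of Rdh7 were Cox6c2, Trafd1 and Anxa13, named for a cytochrome oxidase subunit, a TRAF-type zinc finger protein and an annexin. Likeness was the root mean square difference of centred log2 CPM, 0.06 for Cox6c2 and 0.07 for Trafd1 and Anxa13, against a median of 0.47 over all genes tested. As the 3 genes were chosen for small values of this measure, lying below the median follows from the choice. Among the tested members the closest pair by this measure was Rbp2 and Isx (0.15) and the farthest Lrat and Rdh7 (0.40). Adh4 was the pathway gene of smallest p. It encodes an alcohol dehydrogenase that also oxidises retinol, and it stood at 12.7, 10.2 and 7.71 FPKM in cold water 1, 2 and 3 and at 23.3, 24.3 and 24.9 FPKM in control 1, 2 and 3. The groups were far apart relative to the spread of the controls. The log2 difference was -1.22 (standard error 0.17, 95% interval -1.62 to -0.81), and the gene did not pass (edgeR adjusted p = 0.316). DESeq2 called it, with a log2 difference of -1.23 and an adjusted p of 6.996e-07, and the other 18 of 19 alternatives did not, with adjusted p from 0.274 to 0.946.

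Dhrs3 encodes a short-chain reductase that returns retinal to retinol and is induced by retinoic acid. At chr4:144892827-144928209, plus strand, the sum over its 7 transcripts was 22.8, 27.8 and 24.5 FPKM in cold water 1, 2 and 3 and 34.8, 31.2 and 29.2 FPKM in control 1, 2 and 3. All cold water values lay below all control values, in FPKM and in scaled CPM. The means were 25.1 ± 2.55 and 31.7 ± 2.84 FPKM (SD, n = 3), and the log2 difference was -0.36 (standard error 0.16, 95% interval -0.73 to 0.01), which did not pass (edgeR adjusted p = 0.878).

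The leading Dhrs3 transcript, ENSMUST00000084184, is annotated as a target of nonsense-mediated decay, the pathway that degrades messages with an early stop codon. It held 72.7, 68.9 and 72.3% of the Dhrs3 counts in cold water 1, 2 and 3, against 81.0, 80.5 and 82.3% in control 1, 2 and 3. Its level was 15.4, 17.7 and 15.6 FPKM in cold water and 27.1, 24.8 and 20.9 FPKM in control, again with all cold water values the lower. The log2 difference was -0.55 (standard error 0.16, 95% interval -0.95 to -0.16), which did not pass over the 21041 transcripts tested (edgeR adjusted p = 0.960). Of these transcripts 0.0285% passed and 10.5% had groups that did not overlap. DESeq2 called this transcript (adjusted p = 0.00383), and the other 16 of 17 alternatives gave adjusted p from 0.769 to 1.

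The 4 Dhrs3 transcripts annotated as protein coding summed to 6.73, 8.55 and 7.73 FPKM in cold water 1, 2 and 3 and to 7.19, 5.98 and 7.77 FPKM in control 1, 2 and 3. These groups overlapped, with means of 7.67 ± 0.910 and 6.98 ± 0.913 FPKM (SD, n = 3; exact permutation p = 0.5, two-sided). With coding transcripts alone the log2 difference of Dhrs3 was 0.18 (edgeR adjusted p = 0.981), so the lower sum in cold water lay in the transcript annotated for decay. The coding share of the Dhrs3 FPKM was 29.5, 30.7 and 31.5% in cold water and 20.7, 19.1 and 26.6% in control. The shares did not overlap (two-sided exact permutation p = 0.1, the smallest that this design allows). As the decay form makes up most of the denominator, this restates its lower level and is no separate support. How many other genes have shares that do not overlap was not counted. Among the coding forms, ENSMUST00000154208 held 2.79 to 16.6% of the counts and ENSMUST00000171001 0 to 11.5%. ENSMUST00000142808 held 0 to 7.39% of the counts but weighed more in FPKM. It stood at 2.78, 0 and 3.57 FPKM in cold water 1, 2 and 3 and at 1.78, 1.42 and 4.86 FPKM in control 1, 2 and 3. The coding sum and share therefore rest in part on a form listed at 0 in cold water 2. How reads were assigned among transcripts that share most of their exons is an estimate made before deposit, so the shares carry an error that the spread between libraries shows only in part.

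**Figure D2:**
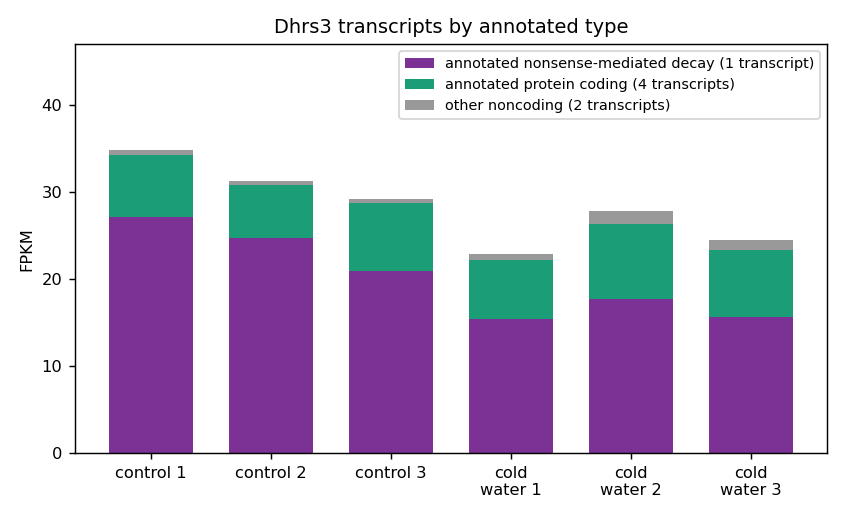
Stacked bars of Dhrs3 FPKM in each library by annotated transcript type. The segment annotated for nonsense-mediated decay is 20.9 to 27.1 FPKM high in control and 15.4 to 17.7 FPKM in cold water, while the protein coding segments overlap between the groups (5.98 to 7.77 and 6.73 to 8.55 FPKM).

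Aldh1a1 encodes a cytosolic dehydrogenase that oxidises retinal to retinoic acid. At chr19:20492715-20643465, plus strand, it stood at 218, 277 and 212 FPKM in cold water 1, 2 and 3 and at 324, 179 and 282 FPKM in control 1, 2 and 3. The control libraries held both the highest and the lowest value, so the groups overlapped fully. The means were 236 ± 35.7 and 262 ± 74.4 FPKM (SD, n = 3), and the log2 difference was -0.15 (standard error 0.29, 95% interval -0.83 to 0.52; edgeR adjusted p = 0.970). Control 2, the lowest for Aldh1a1, also had the lowest Rdh7 of the controls, the lowest summed enterocyte markers (32910 FPKM) and the highest summed smooth muscle markers (1689 FPKM). Cold water 2 had the highest smooth muscle sum of its group (1385 FPKM) and also its highest Aldh1a1 (277 FPKM) and Rdh7 (103.9 FPKM). The part of tissue makeup in these levels was not tested.

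The transcript ENSMUST00000087638, which starts at position 20601961 of chromosome 19, held 99.8 to 100% of the Aldh1a1 counts. The 5 other listed transcripts start further upstream, and none exceeded 0.321 FPKM in any library. Of the overlapping genes on the opposite strand, Gm6684 was at 0 throughout and C730002L08Rik at 0 to 0.238 FPKM.

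Aldh1a1 held 86.8 to 92.7% of the FPKM summed over Aldh1a1, Aldh1a2, Aldh1a3 and Aldh1a7. Aldh1a7, a neighbour on chromosome 19 whose leading transcript is 89.0% identical with shared runs of up to 100 bases, stood at 12.4 to 24.3 FPKM (log2 difference -0.35, edgeR adjusted p = 0.880). Reads of this pair could be split between them. The retinal dehydrogenases Aldh1a2 and Aldh1a3 are less like Aldh1a1 in sequence (70.7 and 70.3% identical) and stood at 1.65 to 5.99 and 2.06 to 5.88 FPKM.

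**Figure D3:**
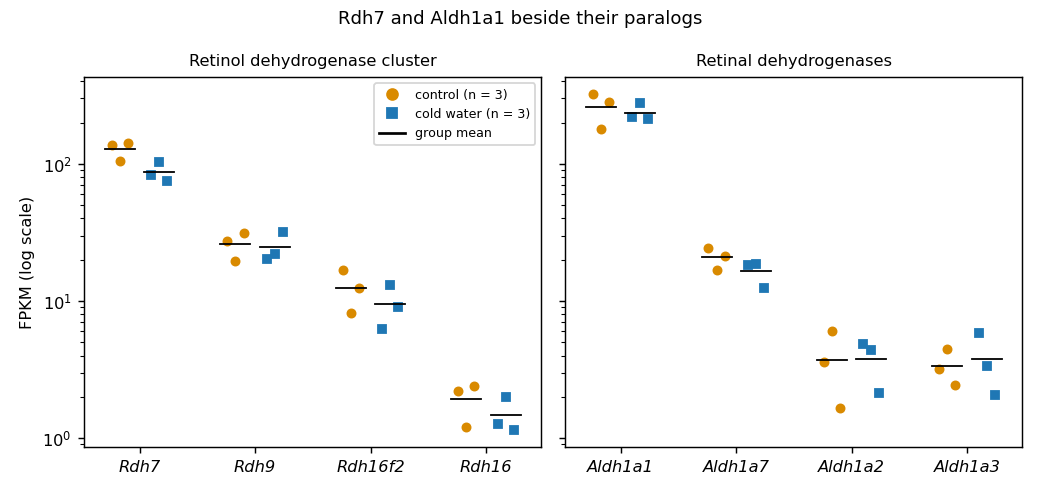
FPKM on a log scale of Rdh7 and 3 genes of its cluster, and of Aldh1a1 and its paralogs Aldh1a7, Aldh1a2 and Aldh1a3, 1 point per library with a line at the group mean (n = 3 each). Rdh7 lies at 75.5 to 141 FPKM above Rdh9 at 19.7 to 32.1 FPKM, and Aldh1a1 at 179 to 324 FPKM above Aldh1a7 at 12.4 to 24.3 FPKM, in every library.

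Cyp26b1 encodes a cytochrome P450 that hydroxylates retinoic acid for disposal. At chr6:84571414-84593908, minus strand, it stood at 0.726, 1.24 and 0.793 FPKM in cold water 1, 2 and 3 and at 0.371, 0.828 and 0.364 FPKM in control 1, 2 and 3. Control 2 lay among the cold water values, so the groups overlapped. About 71.4, 113.9 and 72.2 fragments in cold water and 35.3, 75.7 and 35.9 fragments in control stood behind these values. The mean over the 6 libraries, 0.720 FPKM, was under the level for testing. The group means were 0.919 ± 0.278 and 0.521 ± 0.266 FPKM (SD, n = 3), a ratio of 1.76, and the two-sided exact permutation test gave p = 0.3. On the log2 scale this ratio was 0.82, and it ran from 0.54 without cold water 2 to 1.32 without control 2. Fitted without a filter on low values, the log2 difference was 0.87 (standard error 0.40, 95% interval -0.05 to 1.78; edgeR adjusted p = 0.809).

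Cyp26b1 was the most abundant of its family, since Cyp26a1 reached at most 0.0490 FPKM and Cyp26c1 at most 0.0134 FPKM. In both libraries with the most smooth muscle marker RNA, cold water 2 and control 2, Cyp26b1 was the highest of its group, and what part smooth muscle RNA has in its level was not tested. The transcript ENSMUST00000205228, which starts at position 84587680, held 94.0 to 100% of the Cyp26b1 counts. ENSMUST00000077705 and ENSMUST00000168003, which start furthest upstream (84593746 and 84593908), were at 0 FPKM in all 6 libraries. Aldh1a1 was 216 to 872 times as abundant per length as Cyp26b1. The ratio was highest in control 1 (872) and control 3 (774), where Cyp26b1 had about 35.3 and 35.9 fragments. This ratio of RNA levels in whole tissue does not measure the making of retinoic acid against its removal.

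After adjustment over all genes, 0 of the 6 tested members passed edgeR's test, where 5 of 12939 genes did (0.0386%). DESeq2 and limma called 0 members as well. Groups did not overlap in FPKM for 3 of the 6, Rdh7 and Dhrs3 with cold water lower (4.34% of all genes) and Lrat with cold water higher (5.09% of all genes). Of these, Dhrs3 alone kept apart in scaled CPM, as did 10.5% of all genes. The log2 difference was below 0 for 5 of the 6, with a median of -0.14, beside 45.8% of all genes tested and a median of 0.03. The median of the 6 stayed below 0 under 19 of 19 alternatives, at -0.40 (with scaling to the enterocyte markers, and -0.14 relative to all genes) to -0.01 (without control 3), while the number below 0 ran from 3 to 6.

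The wider retinoid pathway list holds 57 genes, of which 39 were tested and 18 were under the level for testing. None passed by edgeR and 1 by DESeq2 (Adh4), and 5 had an unadjusted p under 0.05. Of all 12939 genes tested, edgeR called 5 and DESeq2 71, and 5.01% had an unadjusted p under 0.05 by edgeR. As background for this list and its steps below, 45.8% of all genes had a log2 difference below 0, with a median of 0.03. In this list 26 genes (66.7%) were below 0 and 13 above, with a median log2 difference of -0.12. The median was -0.06 without cold water 1, -0.07 without control 1, -0.19 without cold water 3 and -0.20 without control 2. Scaled to the enterocyte markers it was -0.38, and -0.12 relative to all genes, and over the 19 alternatives 21 to 34 genes were below 0, with fewer tested at a minimum of 5 FPKM. The lists were chosen with earlier results of these data known, so these counts are a description.

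Of the 7 uptake genes 4 were tested, and all 4 stood above 0, Cd36 only at the fourth decimal. The other 3 were under the level for testing. Their means were lower in cold water for Pnlip (0.087 against 0.578 FPKM) and Plb1 (0.079 against 0.123) and higher for Stra6 (0.573 against 0.147). The highest log2 difference of the 4 tested was that of Scarb1, a receptor that takes carotenoids into the enterocyte. It stood at 4.81, 2.63 and 3.50 FPKM in cold water 1, 2 and 3 and at 2.22, 3.22 and 1.77 FPKM in control 1, 2 and 3. The groups overlapped through cold water 2 and control 2, and the log2 difference was 0.72 (standard error 0.30, edgeR adjusted p = 0.878). Under the 19 alternatives 0 to 2 of the tested uptake genes were below 0 and their median stayed above it, at 0.03 to 0.58. The lowest median was with scaling to the enterocyte markers, where it was 0.30 relative to all genes, against 0.27 without that scaling.

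Among the 8 binding protein genes, 6 were tested and 4 of them were below 0. Rbp7, a cellular retinol-binding protein, stood at 24.5, 14.9 and 13.4 FPKM in cold water 1, 2 and 3 and at 29.4, 31.9 and 28.1 FPKM in control 1, 2 and 3. No cold water library reached a control level, and the log2 difference of -0.77 did not pass (standard error 0.22, edgeR adjusted p = 0.878). The plasma retinol carrier Rbp4 stood at 0.918 to 2.89 FPKM and its partner transthyretin, Ttr, at 2.08 to 3.54 FPKM.

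Below 0 lay 45.8% of all genes tested, with a median of 0.03. Of the 21 retinol and retinal oxidoreductases, 15 were tested and 14 had a log2 difference below 0, with a median of -0.14. The exception was the aldo-keto reductase Akr1b8 (0.28), and Rdh5 (-0.009), Rdh14 (-0.06) and Rdh9 (-0.06) lay close to 0. The median kept its sign under all 19 alternatives (-0.45 to -0.11), while the number below 0 ran from 10 to 14, with fewer genes tested at a minimum of 5 FPKM. The most abundant of them, the alcohol dehydrogenase Adh1, stood at 597 to 987 FPKM with a log2 difference of -0.30. Rdh10, a retinol dehydrogenase that works in a complex with Dhrs3, stood at 8.13 to 10.3 FPKM with -0.14.

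Retinoic acid binds the receptors RARA, RARB and RARG, which pair with the RXR receptors. Of the 7 receptor genes 5 were tested, 4 of them below 0, and their median (-0.19) turned to 0.05 with leading transcripts alone. Rxra was the most abundant at 24.9 to 34.1 FPKM (log2 difference -0.19) and Rara stood at 7.78 to 11.8 FPKM (-0.13), while Rarb stayed at or below 0.252 FPKM and Rxrg at or below 0.109 FPKM. Ppard, a receptor that can also bind retinoic acid, had the widest interval of the pathway, with a log2 difference of -1.11 and levels of 7.96 to 31.8 FPKM.

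**Figure D4:**
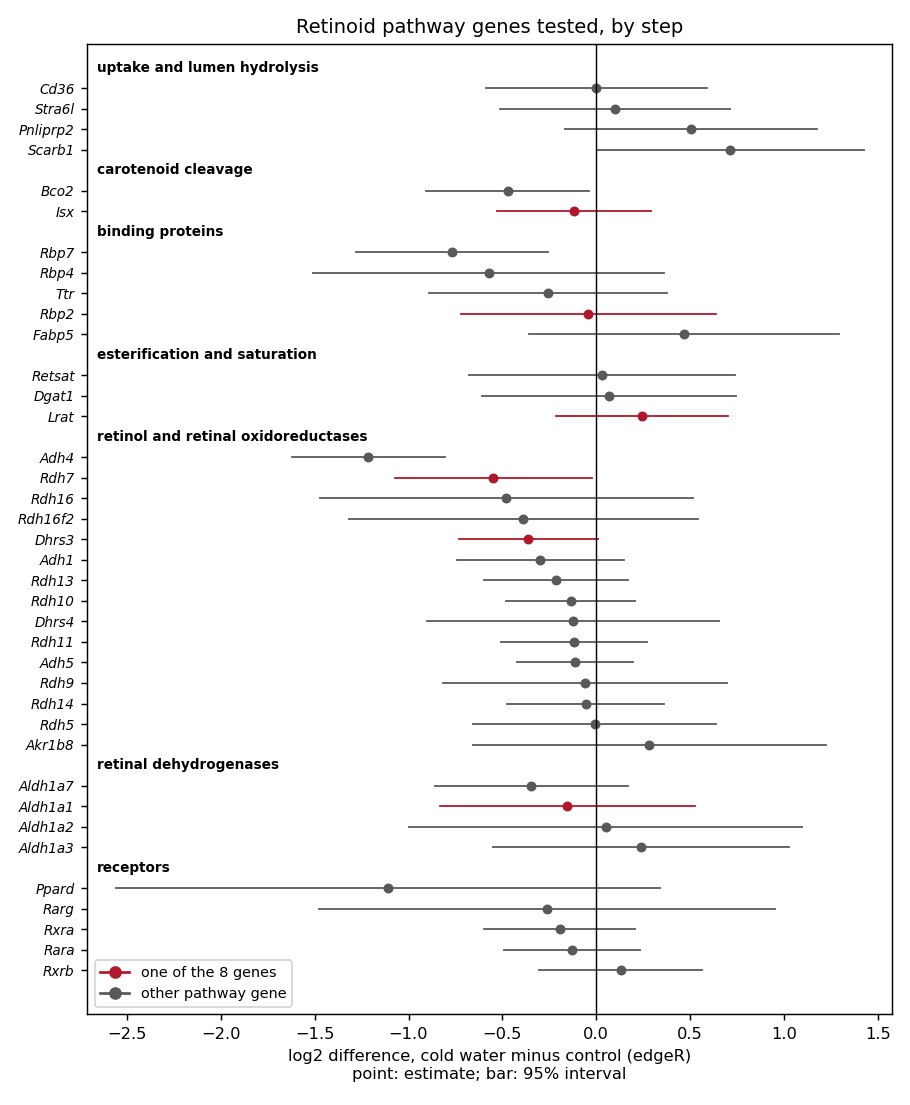
Log2 difference, cold water minus control, of 38 of the 39 retinoid pathway genes tested, grouped by step, with 95% intervals from edgeR (red, the members). Most intervals cross 0, and no gene shown passed after adjustment; Adh4 (-1.22) and Scarb1 (0.72) mark the ends.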

How the data were processed

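Per the labels' protocols, libraries were made from total RNA depleted of ribosomal RNA and read from both ends. The submitters' processing notes name DESeq2, edgeR, StringTie 1.3.4d, HISAT2 2.0.4, FastQC 0.10.1 and cutadapt 1.9. What each was used for, the genome build and strandedness are not given in the sources used. The authors deposited an FPKM value and an estimated count for each of 142604 transcripts and each library. The deposited estimated counts equalled FPKM times length times a constant, rounded up, for 99.2 to 99.4% of values (tolerance 0.02). They are coverage estimates worth about 3.765 per fragment, so counting error is larger than they imply.

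Estimated counts and FPKM were summed by gene name. Genes (12939) and transcripts (21041) averaging 1 FPKM or more in the 6 libraries were fitted with edgeR 4.0.16 in R 4.3.3 (quasi-likelihood test, TMM factors, group alone, Benjamini-Hochberg at 0.05). Alternatives were DESeq2 1.42.0, limma 3.58.1 on log2(FPKM + 1) or log2(FPKM + 0.1), other filters and scalings, a replicate block, counts per fragment, leaving out each library, the leading transcript alone and, added after seeing the data, protein coding transcripts alone. Levels are FPKM, as means ± SD, and differences are log2, cold water minus control. Intervals are 95%.

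The text names the 8 genes, the 4 other pathway genes of smallest p, close paralogs, overlapping genes, the 3 genes most like the member of smallest p, and transcripts with at least 10% of a member's counts. Other pathway genes and other transcripts of the members were named after their values were seen. Members and lists were chosen with earlier results of these data known. The values of 1 pathway gene are not reported here, though it enters the counts of its list.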

Additional observations from a re-analysis of the deposited data

How the results depend on the processing

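With 3 libraries a group, the 95% intervals of the 6 tested members reach from 0.475 (Rdh7) to 1.63 (Lrat) times control. They describe the precision of each estimate and are not a limit of detection. Adh4, at 0.431 times control, did not pass either (edgeR adjusted p = 0.316). Of 131 alternatives for the 8 genes, 125 kept the direction, and none of those for the 6 tested genes passed the threshold. Without 1 library, Rbp2 ran from -0.19 to 0.19 (0.10 without cold water 1, the highest without control 3), Isx from -0.27 to 0.010 (without control 3) and Aldh1a1 from -0.41 to 0.0034 (without control 1). Directions also turned for Lrat scaled to enterocyte markers (-0.048, and 0.22 relative to all genes) and for Dhrs3 with coding transcripts alone (0.18). Rdh7 stayed at -0.79 to -0.40 and had an unadjusted p under 0.05 in 13 of 19 alternatives. The leading transcripts of Rbp2 (-0.18 to 0.16 without 1 library, 0.062 without cold water 1), Lrat (-0.048) and Aldh1a1 (-0.39 to 0.0088) turned likewise. The low Dhrs3 form ENSMUST00000171001 turned with limma and 0.1 added (-0.38), with the block (-0.21) and without cold water 2 (-1.19), with 1.44 as the highest without 1 library. ENSMUST00000154208 turned with library totals (-0.0032), enterocyte scaling (-0.34), and without cold water 1 (-0.083) and control 3 (-0.39), with 0.46 as the highest without 1 library. Of all genes 5 were called, against 71 by DESeq2, 3 by limma with 1 or 0.1 added, 3 with no filter, 3 with library totals, 3 per fragment, 1 with enterocyte scaling, 2 with leading or coding transcripts alone, and 0 to 1 without any 1 library. Of transcripts 6 were called, against 585 by DESeq2, 23 and 22 by limma with 1 and 0.1 added, 0 with no filter, 2 with library totals, 2 with enterocyte scaling and 0 to 10 without any 1 library, the 10 without control 3. In the pathway list DESeq2 called 1 gene against 0. The cause of these shifts was not tested. Libraries of the same number deviated together with correlations of -0.03, 0.20 and 0.40, with cold water 2 and 3 closest to the control of their own number and cold water 1 to control 2 (0.17). As not every pair was positive, the numbers were not taken to pair the samples, which these data do not settle. With the replicate block 0 genes and 0 transcripts were called.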

Other observations

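Newly absorbed retinyl esters leave the enterocyte in chylomicrons. Of 8 chylomicron assembly genes, all 8 were tested, 0 passed edgeR's quasi-likelihood test, DESeq2 or limma, and 1 had an unadjusted p under 0.05 with edgeR and DESeq2 (2 with limma). Over all genes tested, 45.8% had a log2 difference below 0, with a median of 0.03. Of the 8 chylomicron genes 7 were above 0, with a median of 0.17. This direction rested on single libraries, since the median was -0.02 without cold water 3 and 0.04 without control 2, with 4 of the 8 below 0 each time, and up to 0.33 without control 3. Scaled to the enterocyte markers, 4 of which are in this list, it was -0.14, and 0.13 relative to all genes against 0.14 without that scaling.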
